A study of Mus musculus with 2 samples.

Results

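Early crypt goblet nuclei of the mouse colon were compared between chronic colitis of WT and of HIF-1α KO mice. A nucleus was counted as an early crypt goblet nucleus when at least 4 of the 10 genes Slc12a8, Spdef, 9030622O22Rik, Sybu, Reg4, Spink4, Pdia5, Cbfa2t3, Plpp1 and Ramp1 were detected. These genes also had to make up at least 0.3% of the RNA molecules of the nucleus, and fewer than 3 of the 5 mature goblet genes Clca1, Fer1l6, Sytl5, Spink1 and Zg16 could be detected. These measured levels chose the nuclei, so the levels of the 15 genes are given here as a description. By this rule 614 of 9586 nuclei were early crypt goblet nuclei, 301 of 4884 in the WT and 313 of 4702 in the HIF-1α KO library. The HIF-1α KO mice (Ncr1cre+ Hif-1α fl+/fl+) carried a Cre recombinase driven by the Ncr1 (NKp46) promoter and a floxed Hif-1α gene, so that the deletion was directed to NKp46+ lymphoid cells and not to the epithelium, and the WT mice were littermates. Both groups were 8 to 12 weeks old and received 4 cycles of 3 days of 2% dextran sodium sulfate (DSS), a compound that damages the colonic epithelium, each followed by 4 days of recovery, and frozen colon was taken on day 28. Nuclei of 3 animals per genotype were pooled into 1 library per genotype, so the genotype and the library cannot be told apart and no difference between the genotypes could be tested.

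Goblet cells are the mucus-secreting cells of the intestinal epithelium. They arise from progenitors in the crypt, where factors such as Atoh1 and Spdef direct cells to the secretory fate, and they mature while they move towards the surface. Their main product is the mucin Muc2, which is folded in the endoplasmic reticulum (ER), decorated with sugars in the Golgi apparatus and packed into granules. Genes of mature goblet cells such as Clca1 and Zg16 encode further proteins of the secreted mucus.

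The libraries differed in depth, which bears on all that follows. Counts of unique molecular identifiers (UMIs), 1 per captured RNA molecule, summed to 833832 in WT and 1269983 in HIF-1α KO early crypt goblet nuclei, with medians of 2351 and 3420 per nucleus. Over all nuclei of the WT library the median was 2058.5, and over all HIF-1α KO nuclei 4197. Levels are given as counts per 1000000 UMIs (CPM) of the nuclei named, and log2 ratios set HIF-1α KO over WT unless stated otherwise. Intervals in parentheses are exact 95% intervals (binomial for shares, Poisson for levels, conditional for ratios) and cover counting error only, not differences between animals. Those of levels and of ratios of levels leave out differences between nuclei as well. A count of 0 allows up to 3 UMIs, which is 3.60 CPM in the WT and 2.36 CPM in the HIF-1α KO nuclei. Between the libraries 3 barcodes were shared, and none of these belonged to an early crypt goblet nucleus.

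The 10 genes that chose the nuclei made up a median of 0.723% of the UMIs of an early crypt goblet nucleus of the WT library and 0.773% of one of the HIF-1α KO library, compared with 0.0562% and 0.0652% in all other nuclei. Exactly 4 of the 10 genes were found in 72 WT and 30 HIF-1α KO nuclei, whereas 6 or more were found in 158 and 230. Nuclei just inside the limit on this share had 0.301% and 0.30%, and the closest nuclei outside it, with all other limits met, had 0.299% and 0.294%. The 2 of these genes with the most UMIs, a number that also depends on the length of a gene, were 9030622O22Rik, an intergenic noncoding RNA (ENSMUSG00000086141, GRCm38 chromosome 2, 147944740 to 148040203), and Slc12a8, of the cation-chloride cotransporter family (ENSMUSG00000035506, chromosome 16, 33517328 to 33664135). The level of 9030622O22Rik was 2691 (2581 to 2805) CPM in WT nuclei and 2904 (2811 to 2999) in HIF-1α KO nuclei. For Slc12a8 it was 1719 (1631 to 1810) and 1975 (1898 to 2054) CPM, against 129 and 271 in all other nuclei. The bases before the start sites of these genes in RefSeq (GRCm38.p6) are shown because the genes led the class, with capitals for the letters CCACGTCA, known as an element of the CREB3 family of factors to which Creb3l1 belongs. The Slc12a8 window is chr16:33517078-33517327 on the plus strand and the 9030622O22Rik window chr2:148040349-148040598 on the minus strand.
Slc12a8: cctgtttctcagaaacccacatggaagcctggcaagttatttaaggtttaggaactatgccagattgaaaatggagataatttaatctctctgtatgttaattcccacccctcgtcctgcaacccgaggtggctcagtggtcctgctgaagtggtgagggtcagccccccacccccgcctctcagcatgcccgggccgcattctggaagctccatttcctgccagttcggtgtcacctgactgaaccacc
9030622O22Rik: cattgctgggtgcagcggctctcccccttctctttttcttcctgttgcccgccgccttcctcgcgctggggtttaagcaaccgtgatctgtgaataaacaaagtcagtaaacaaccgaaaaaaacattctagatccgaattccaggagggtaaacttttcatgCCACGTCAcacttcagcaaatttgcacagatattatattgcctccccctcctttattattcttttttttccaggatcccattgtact
Both strands were searched, and the letters were found once, 87 bases before the start of 9030622O22Rik, in 1 of the 7 promoters that the RefSeq table held for the 10 genes. The table held 26 starts for 9030622O22Rik, and the printed one, 145 bases from the GENCODE start, is the only one to which the 87 bases refer. Of all 32851 promoter windows of 250 bases, 0.563% held them. The E box CAGCTG, a site of the basic helix-loop-helix family to which Atoh1 belongs, was in the windows of Pdia5 and Cbfa2t3, 2 of the 7, and in 13% of all windows. Neither printed window held it, so no matches overlapped.

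The remaining 8 genes that chose the nuclei had fewer UMIs. Spdef, the ETS factor of goblet differentiation (ENSMUSG00000024215, chromosome 17, 27714352 to 27728955), had 422 (379 to 469) CPM in WT nuclei and 483 (446 to 523) in HIF-1α KO nuclei, compared with 151 and 255 in mature goblet nuclei. Pdia5, a disulfide isomerase of the ER, had 608 and 506 CPM, and Plpp1, a lipid phosphatase, 445 and 487. Plpp1 was the least specific of the 10, since mesenchymal nuclei held 303 and 337 CPM of it. Sybu, which links vesicles to the motor kinesin, had 331 (293 to 372) and 277 (249 to 308) CPM. Reg4, a secreted lectin known from deep crypt secretory cells, had 212 and 170 CPM, against 18.4 and 20.7 in mature goblet nuclei. Other genes known from such cells are given with Kit below. Ramp1, a subunit of the receptor for the neuropeptide CGRP, had 121 and 151 CPM. Cbfa2t3, a transcriptional corepressor, was the gene of this group with the largest increase, from 101 (80.4 to 125) to 180 (157 to 204) CPM, which is 0.83 (0.47 to 1.21) on the log2 scale. Spink4, a protease inhibitor made by goblet cells, showed the largest decrease, from 1511 (1429 to 1597) to 999 (945 to 1056) CPM, which is −0.60 (−0.71 to −0.48) on the log2 scale and −0.47 after thinning to 1000 UMIs, short of 1.5-fold.

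**Figure D1:**
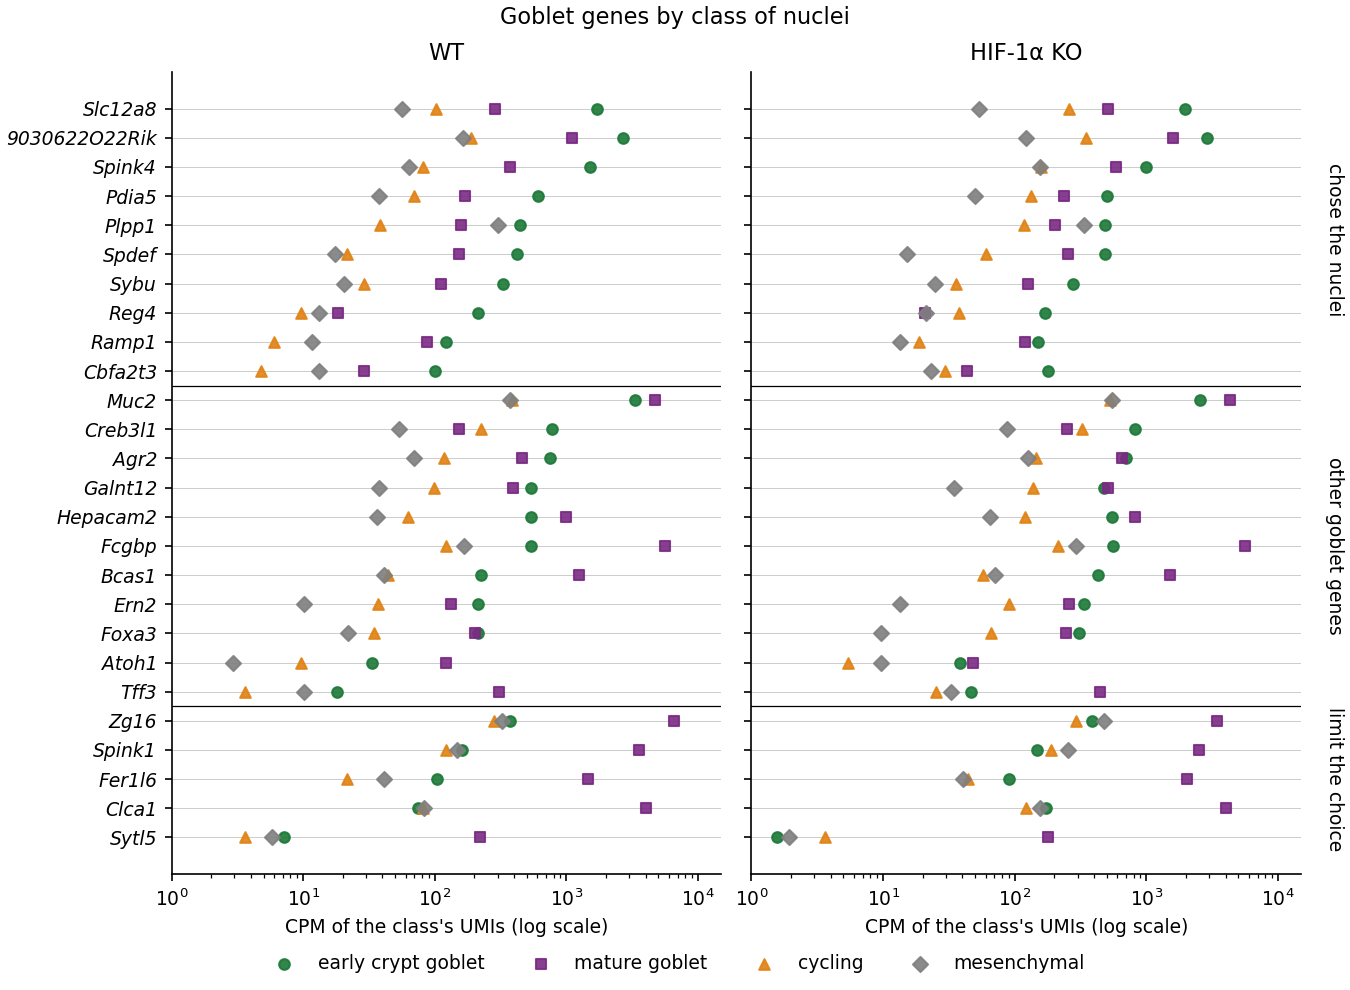
Levels of the genes that chose the nuclei, of goblet genes outside the rule and of the mature genes that limit the choice, in CPM of the UMIs of each class on a log axis, for the WT (left) and the HIF-1α KO library (right), with 1 point per class. Early crypt goblet nuclei hold Muc2 at 3299 and 2539 CPM but Fcgbp at only 541 and 557, against 5625 and 5664 in mature goblet nuclei, and Zg16 and Clca1 in early crypt goblet nuclei lie close to the mesenchymal points.

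Of the 5 mature goblet genes that limit the choice, Zg16 and Clca1 were near their level in mesenchymal nuclei. Zg16, a lectin of the mucus, had 375 and 385 CPM in early crypt goblet, 322 and 480 in mesenchymal and 6563 and 3437 in mature goblet nuclei. Clca1, a protease of the mucus, had 74.4 and 172 CPM in early crypt goblet and 83 and 155 in mesenchymal nuclei.

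Goblet genes that the rule did not use were high in these nuclei too, as the name goblet implies. Of 12 such genes 9 had at least 100 UMIs, and 7 of these (Muc2, Agr2, Creb3l1, Foxa3, Galnt12, Ern2 and Hepacam2) were at least 2-fold above all other nuclei in both libraries with 10 CPM added, as were 2.73% of all 4220 genes with at least 100 UMIs. The rule chose the nuclei by expression, so nothing is read from this count. Muc2 (ENSMUSG00000025515, chromosome 7, 141690340 to 141754693) had 3299 (3177 to 3425) CPM in WT nuclei and 2539 (2453 to 2629) in HIF-1α KO nuclei, against 903 and 1162 in all other nuclei. Mesenchymal nuclei, which should lack Muc2, held 376 and 553 CPM at median depths of 2249 and 3614.5 UMIs, so levels of this size can be background from free RNA. At least 1 Muc2 UMI was found in 95% and 97.1% of the early crypt goblet nuclei and in 57.5% and 86.7% of the mesenchymal nuclei. After every nucleus was thinned to 1000 UMIs these shares were 84.1% and 85.9% compared with 29.1% and 52.9%. Agr2, a disulfide isomerase needed for mucin folding, had 754 and 702 CPM in early crypt goblet nuclei, and Hepacam2 542 and 544. Creb3l1, a transcription factor held in the ER membrane (ENSMUSG00000027230, chromosome 2, 91982328 to 92024502), had 771 (713 to 833) and 825 (776 to 877) CPM, against only 151 and 249 in mature goblet nuclei. Fcgbp, a mucus protein that binds Muc2, had 541 and 557 CPM in early and 5625 and 5664 in mature goblet nuclei. Tff3, a trefoil peptide of goblet mucus, had only 15 and 59 UMIs in early crypt goblet nuclei, or 18 and 46.5 CPM, compared with 308 and 442 in mature goblet nuclei. The position of a nucleus along the crypt was not measured, and the word early rests on the genes of the rule.

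Genes of the crypt and of dividing cells were present at levels between those of mature goblet and cycling nuclei. The 18 cell cycle genes together had 1132 CPM in WT and 792 in HIF-1α KO early crypt goblet nuclei, 1029 and 641 in all other nuclei, 465 and 248 in mature goblet nuclei and 4752 and 5079 in the cycling class. The 16 crypt stem genes together had 2991 and 2827 CPM, against 2248 and 1872 in all other nuclei, 2024 and 1506 in mature goblet and 3757 and 3267 in cycling nuclei. The one with the most UMIs was Lrig1, a brake on growth factor receptors, whereas Lgr5, the marker of crypt base stem cells, had 11 and 15 UMIs and Olfm4 had 0 in both libraries. Of the early crypt goblet nuclei 21 WT and 14 HIF-1α KO nuclei also met the marker rule of cycling nuclei. These held Top2a, the topoisomerase of dividing cells, at 635 (461 to 852) and 928 (728 to 1167) CPM, against 82.4 and 47.8 in the other early crypt goblet nuclei, and Slc12a8 at 1443 (1174 to 1755) and 1780 (1498 to 2101), against 102 and 258 CPM of Slc12a8 in the cycling class. Muc2 was lower in them, at 2193 (1859 to 2571) CPM against 3399 in the other early crypt goblet nuclei of the WT, and at 877 (683 to 1110) against 2649 in the HIF-1α KO library. The contrasts of Top2a and Slc12a8 follow in part from the marker rules that these 21 and 14 nuclei met, and are a description. Muc2 lay unevenly over the class, since 36.5% (WT) and 39.9% (HIF-1α KO) of all early crypt goblet nuclei held 71.6% and 72.6% of its UMIs. Its counting intervals in the 21 and 14 nuclei are therefore too narrow, and its lower level there is a description as well.

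Among all genes outside the rule with at least 100 UMIs, Meg3, Pde2a, Kit, Etv5 and Rapgef3 had the highest levels relative to all other nuclei, ranked by the library with the lower ratio. This is a description, since nuclei that were chosen by expression differ from the rest by construction. With 10 CPM added to both levels, the log2 ratio of early crypt goblet over all other nuclei was 2.42 (WT) and 2.09 (HIF-1α KO) for Meg3, a maternally expressed imprinted noncoding RNA (ENSMUSG00000021268, chromosome 12, 109541001 to 109571726). It was 2.11 and 2.08 for Pde2a, a phosphodiesterase of cyclic nucleotides, and 2.40 and 1.96 for Rapgef3, an exchange factor activated by cyclic AMP. For Kit, the receptor of stem cell factor and a known marker of deep crypt secretory cells, it was 2.05 and 2.06, and for Etv5, an ETS factor induced by receptor tyrosine kinases, 2.02 and 2.08. Txndc5 and Creb3l1 of the ER, Galnt10, which starts O-glycosylation, the forkhead factor Foxa3, Ano7, Fam189a1, Rian, the protein-coding 5330417C22Rik and the noncoding RNAs Gm13832 and 9530036O11Rik completed the 15 leading genes, with log2 ratios from 1.80 to 2.50 in the WT and from 1.72 to 2.04 in the HIF-1α KO library. At least 1 Kit UMI was found in 25.2% (20.4 to 30.6%) of WT and 40.3% (34.8 to 45.9%) of HIF-1α KO early crypt goblet nuclei, compared with 3.54% and 2.50% of mesenchymal nuclei. After thinning to 1000 UMIs the shares were 11.3% (7.95 to 15.4%) and 15.4% (11.6 to 19.9%), and the intervals overlapped. Of 12 genes listed for deep crypt secretory and Paneth cell features 2 were tested. Of these, Kit alone was at least 2-fold above all other nuclei in both libraries, as were 2.73% of all 4220 genes. Lyz1, Mmp7 and Wnt3 had 0 UMIs. Together the list had 306 and 323 CPM, against 201 and 179 in all other, 255 and 202 in mature goblet and 309 and 218 in mesenchymal nuclei.

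Of the 15 leading genes some had like levels in early and mature goblet nuclei and others were higher in early nuclei. With 10 CPM added, the log2 ratio of early over mature goblet nuclei was 0.06 (WT) and 0.30 (HIF-1α KO) for Foxa3, 0.14 and 0.29 for Fam189a1 and 0.54 and −0.03 for Ano7. Etv5 had 140 and 93.7 CPM in early but 9.70 and 10.1 CPM in mature goblet nuclei, and Kit had 128 and 167 CPM in early and 50.5 and 47.7 in mature goblet nuclei. Outside the 15 genes, Etv4, a relative of Etv5, had 61.2 and 47.2 against 11.6 and 6.39 CPM. Dlg2, a scaffold protein of membranes, had 476 and 628 against 67.9 and 63.9 CPM, and the sorting receptor Sorcs2 242 and 316 against 34.9 and 54.8. Klf12, a zinc finger repressor, had 540 and 792 against 132 and 194 CPM.

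Meg3 was not spread evenly over the early crypt goblet nuclei but lay in few of them. Meg3 was at 0 UMIs in 182 of the 301 nuclei of the WT and in 219 of the 313 nuclei of the HIF-1α KO library, while 47 and 32 nuclei held at least 10, a limit set after the values were seen. Of the early crypt goblet nuclei they were 15.6% (11.7 to 20.2%) for WT and 10.2% (7.10 to 14.1%) for HIF-1α KO, and they held 87.5% and 91.5% of the Meg3 UMIs of the class, with up to 99 and 92 in 1 nucleus. Of all other nuclei 1.13% and 2.03% held as many. Among nuclei that carried the markers of the class but also 3 or more mature goblet genes the shares were 9.09% (4.45 to 16.1%) and 9.0% (6.67 to 11.8%), among cycling nuclei 0.395% and 1.54%, and among mesenchymal nuclei 0.787% and 5.00%. In the nuclei rich in Meg3 its neighbors in the imprinted region of chromosome 12 were found as well. At least 1 UMI of Rian (109603940 to 109661716) was present in 44 of the 47 nuclei from the WT and 31 of the 32 from the HIF-1α KO library, compared with 13.4% and 7.12% of the other early crypt goblet nuclei. Mirg (109729764 to 109749460) was present in 63.8% and 71.9% of them against 3.94% and 0.356%, and B830012L14Rik (109695586 to 109702587) in 68.1% and 65.6% against 5.51% and 2.49%. Muc2 had 4912 and 3962 CPM in the nuclei rich in Meg3 against 2975 and 2343 in the others, and Etv5 265 and 182 against 115 and 81.5 CPM. Spink4, a gene of the rule, had 2313 and 1462 against 1350 and 935 CPM. For these genes the counting intervals lay apart in both libraries, but such intervals leave out differences between nuclei, and no gene was tested. The intervals overlapped for Kit, with 179 and 208 against 118 and 161 CPM, for Creb3l1, with 738 and 760 against 778 and 834, and for Top2a, with 93.1 and 52.0 against 135 and 109. Their median depth was 2415 and 3862 UMIs, compared with 2303.5 and 3406 in the others.

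**Figure D2:**
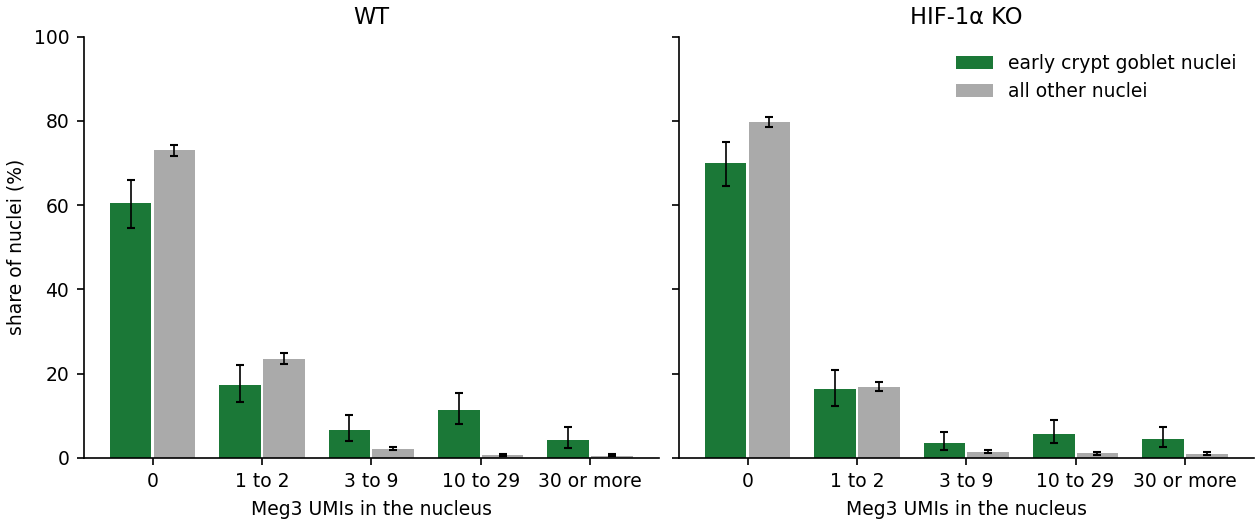
Share of nuclei (%) by the number of Meg3 UMIs in the nucleus, for early crypt goblet nuclei (green) and all other nuclei (grey) of the WT (left) and the HIF-1α KO library (right), with exact 95% binomial intervals. Nuclei with 10 to 29 UMIs make up 11.3% and 5.75% of the early crypt goblet nuclei and 0.589% and 1.07% of all others, and most early crypt goblet nuclei hold none.

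The share of early crypt goblet nuclei in the library was 6.16% (5.50 to 6.87%) for the WT and 6.66% (5.96 to 7.41%) for the HIF-1α KO genotype, with a log2 ratio of 0.11 (−0.12 to 0.34), and the intervals overlapped. This ratio changed when the depth of the nuclei was made equal by thinning. After every nucleus was thinned to 1000 UMIs, 211 of 4884 WT nuclei (4.32%, 3.77 to 4.93%) and 396 of 4639 HIF-1α KO nuclei (8.54%, 7.75 to 9.38%) met the rule, a log2 ratio of 0.98 (0.74 to 1.23). Among unthinned nuclei with 2000 to 5000 UMIs the shares were 8.01% and 9.13%, a log2 ratio of 0.19 (−0.11 to 0.49). The limit on mature genes moved it as well. The markers were met by 411 WT and 824 HIF-1α KO nuclei, of which 110 and 511 were left out for 3 or more mature genes, and without this limit the shares were 8.42% and 17.5%, a log2 ratio of 1.06. With fewer than 2 mature genes allowed in place of 3, they were 3.81% and 2.28%, a log2 ratio of −0.74, so that the direction turned. The mature genes also reached nuclei that should lack them, since 3 or more were detected in 8 of 254 WT (3.15%, 1.37 to 6.11%) and 41 of 120 HIF-1α KO mesenchymal nuclei (34.2%, 25.8 to 43.4%). Mature goblet nuclei, with at least 3 of these genes and 0.3% of UMIs in them, made up 6.72% (6.03 to 7.45%) and 11.2% (10.3 to 12.1%), a log2 ratio of 0.74 (0.54 to 0.94), 0.61 (0.40 to 0.82) after thinning, and 0.34 (0.03 to 0.65) among nuclei with 2000 to 5000 UMIs. Early crypt goblet nuclei were 47.9% (43.9 to 51.8%) of early and mature goblet nuclei together for the WT and 37.3% (34.0 to 40.6%) for the HIF-1α KO genotype at full depth, but 39.5% and 45.8% after thinning, and 52.5% and 50% among nuclei with 2000 to 5000 UMIs.

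**Figure D3:**
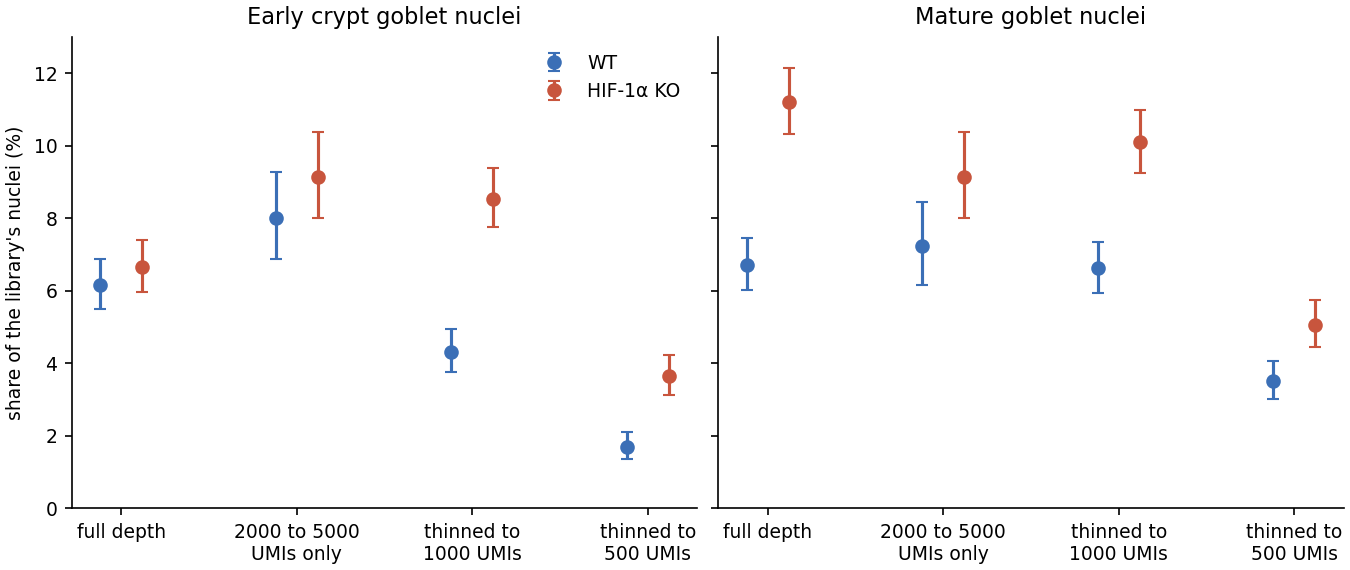
Share of early crypt goblet nuclei (left) and mature goblet nuclei (right) among the nuclei of the WT (blue) and HIF-1α KO (red) libraries, at full depth, among nuclei with 2000 to 5000 UMIs, and after thinning of each nucleus to 1000 or 500 UMIs, with exact 95% binomial intervals. The early shares of the libraries overlap at full depth (6.16% and 6.66%) and lie apart after thinning to 1000 UMIs (4.32% and 8.54%).

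In the comparison of gene levels between the genotypes within early crypt goblet nuclei, 4220 genes had at least 100 UMIs in the libraries together. Of these, 415 genes (9.83%) were at least 1.5-fold higher and 179 (4.24%) at least 1.5-fold lower in the HIF-1α KO nuclei. The median log2 ratio was 0.09, and the middle 50% of genes lay between −0.15 and 0.34. When levels were scaled by the median ratio in place of the sum of UMIs, the numbers were 279 and 271, a scaling that centres the genes by construction. Of the 415 higher genes 189 were also at least 1.5-fold higher in all other nuclei, as were 85 of the 179 lower genes in the lower direction. The shares 9.83% and 4.24% are the background for the gene lists that follow.

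The highest log2 ratio with intervals apart belonged to Lrrc4, an adhesion protein, with 16 WT and 114 HIF-1α KO UMIs or 19.2 and 89.8 CPM. Its log2 ratio was 2.23 (1.46 to 3.08), compared with 1.71 in all other and 2.01 in mature goblet nuclei. The noncoding RNA 2610318M16Rik followed, with 56.4 and 254 CPM or 2.17 (1.72 to 2.64), and in all other nuclei its log2 ratio was 2.68. Tcf7l1, a repressor of Wnt target genes, had 32.4 (27 UMIs) and 143 (181 UMIs) CPM, a log2 ratio of 2.14 (1.55 to 2.78), compared with 0.78 in all other nuclei. Clca4a, Gm15401, mt-Cytb and Fut9, a fucosyltransferase, were higher by 2.01, 1.97, 1.93 and 1.77 on the log2 scale, compared with 1.23, 1.02, 1.67 and 1.13 in all other nuclei. Gm15401 (chromosome 6, 72629288 to 72637717) lies within Tcf7l1 (72626378 to 72789254) on the opposite strand, so these genes share a locus. Acat2, Insig1 and Hmgcs1, described with the sterol genes, were also among the 10 highest. With nuclei chosen after thinning the log2 ratio of Clca4a was 0.44, short of 1.5-fold. Clca4a and mt-Cytb were less abundant in early crypt goblet nuclei than in all others in both libraries, at 27.6 and 111 against 135 and 318 CPM for Clca4a and at 20.4 and 78.0 against 61.4 and 195 for mt-Cytb. The median share of mitochondrial UMIs was 0.0976% in WT and 0.194% in HIF-1α KO early crypt goblet nuclei, and 0.130% and 0.244% over all nuclei. The lowest log2 ratios were those of Gm19951 (−1.65), Taco1 (−1.54), Prkg1 (−1.52), D5Ertd579e (−1.39), Tln2 (−1.38), Atg4a (−1.37), Nrg1 (−1.32), B830012L14Rik (−1.28), Fkbp5 (−1.28) and AY036118 (−1.27). The direction of Nrg1 turned to 0.39 when early nuclei were limited by mature UMIs under 0.3% in place of fewer than 3 mature genes. For 9 of these genes, B830012L14Rik excepted, the log2 ratio in all other nuclei lay between −1.87 and −0.90. Prkg1, a kinase of smooth muscle, and Nrg1, a stromal growth factor, are abundant in mesenchymal nuclei, with 2101 and 2234 CPM for Prkg1 and 2603 and 1962 for Nrg1. Mesenchymal nuclei were 5.20% (WT) and 2.55% (HIF-1α KO) of the libraries, and the part of their RNA in the levels of these genes was not tested. AY036118 alone held 9990 and 4132 CPM in early crypt goblet nuclei, and its log2 ratio in all other nuclei was −1.65.

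**Figure D4:**
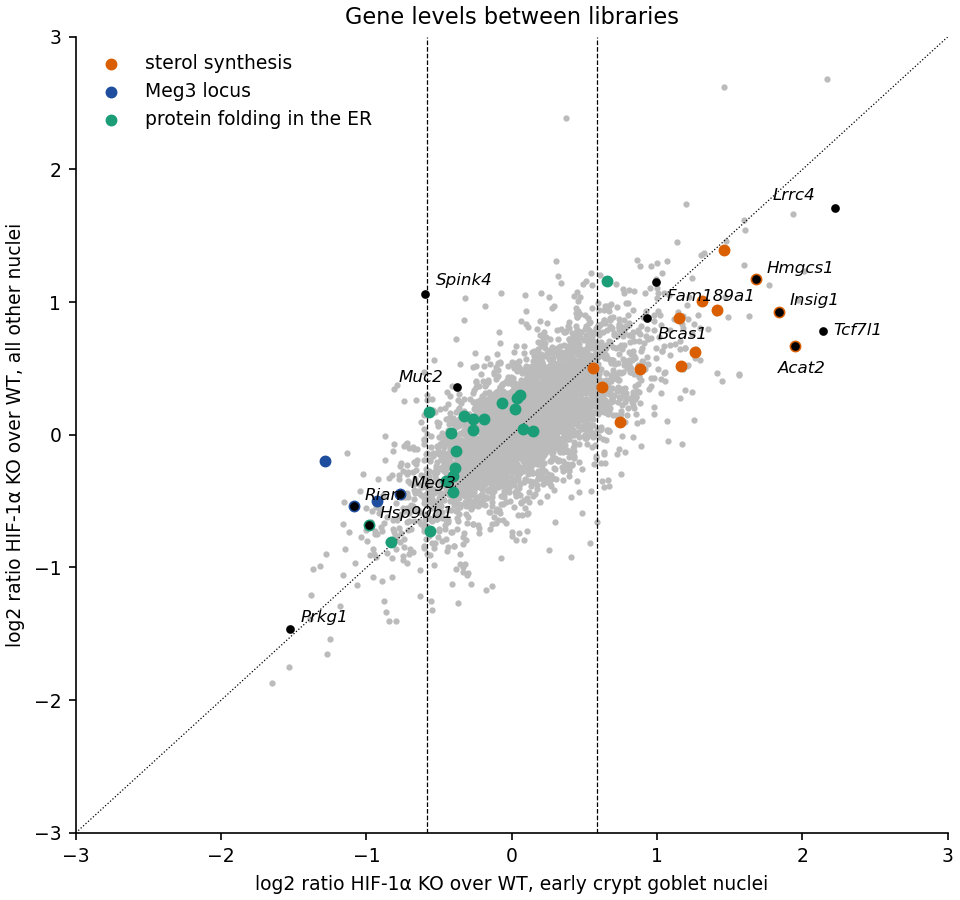
Log2 ratio HIF-1α KO over WT of each of 4220 genes in early crypt goblet nuclei (horizontal) and in all other nuclei (vertical), with genes of sterol synthesis in orange, of the Meg3 locus in blue and of protein folding in the ER in green. The dotted line marks equal ratios and the dashed lines 1.5-fold. Sterol genes lie to the right of the dotted line, and Spink4 and Muc2 lie to its left.

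Genes of sterol synthesis were higher together in the HIF-1α KO nuclei. This list was written after some of its genes had been seen among the highest ratios, so its count is a description. Of 18 genes 13 had at least 100 UMIs, and 12 of these were at least 1.5-fold higher and none lower, with a median log2 ratio of 1.26, compared with 0.67 for the same genes in all other nuclei and 0.09 for all genes tested. Hmgcs1, which makes the precursor of mevalonate (ENSMUSG00000093930, chromosome 13, 119690379 to 119708260), had 198 UMIs or 237 (206 to 273) CPM in the WT and 968 UMIs or 762 (715 to 812) CPM in the HIF-1α KO nuclei, a log2 ratio of 1.68 (1.46 to 1.91). It was 1.17 in all other nuclei and 0.94 in mature goblet nuclei. At least 1 Hmgcs1 UMI was found in 40.2% and 77.6% of early crypt goblet nuclei and in 17.3% and 54.2% of mesenchymal nuclei, or in 18.9% and 51.4% compared with 7.87% and 21.8% after thinning to 1000 UMIs. Insig1, the sterol sensor of the ER, had 19.2 and 68.5 CPM, Acat2, an acetyl-CoA acetyltransferase, 19.2 and 74.0, and Fdft1, which makes squalene, 154 and 340. Srebf2, the factor that activates these genes, was the tested gene that did not reach 1.5-fold, with 205 and 302 CPM, a log2 ratio of 0.56 (0.29 to 0.83). The log2 ratio of Hmgcs1 under the other settings lay between 1.51 and 1.83. The 250 bases before the RefSeq start of Hmgcs1 (GRCm38.p6, chr13:119690101-119690350, plus strand) are shown because Hmgcs1 had the most UMIs of the list.
Hmgcs1: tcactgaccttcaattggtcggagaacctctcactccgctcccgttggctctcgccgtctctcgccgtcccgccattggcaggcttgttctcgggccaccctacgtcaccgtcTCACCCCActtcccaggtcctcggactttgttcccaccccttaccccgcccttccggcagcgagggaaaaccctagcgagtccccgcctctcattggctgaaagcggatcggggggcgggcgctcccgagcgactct
Capitals mark TCACNCCA, letters known from sterol regulatory elements, which lay 137 bases before the start. The letters were found on either strand in 3 of the 14 promoters of the list that the RefSeq table held, those of Hmgcs1, Msmo1 and Srebf2, and in 3.67% of all 32851 windows.

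The transcripts of the Meg3 locus were lower in the HIF-1α KO nuclei. All 4 tested genes of this list, also written after the values were seen, were at least 1.5-fold lower, with a median log2 ratio of −1.01 compared with −0.47 in all other nuclei. Meg3 had 1722 (1634 to 1814) and 1012 (957 to 1069) CPM, a log2 ratio of −0.77 (−0.88 to −0.66), and Rian 402 and 189, a log2 ratio of −1.09 (−1.33 to −0.84). Mirg had 102 and 53.5 CPM and B830012L14Rik 128 and 52.8. After thinning to 1000 UMIs the log2 ratio of Mirg was −0.53, short of 1.5-fold. Since most of these UMIs lay in 47 WT and 32 HIF-1α KO nuclei, the counting intervals of the levels are too narrow, and the shares of nuclei rich in Meg3 given above had overlapping intervals. Within such nuclei the mean number of Meg3 UMIs was 26.7 (WT) and 36.8 (HIF-1α KO), but their median depths were 2415 and 3862 UMIs. No direction is therefore read from these means. Relative to all UMIs of these nuclei, Rian had 1976 and 1403 CPM, B830012L14Rik 659 and 390, and Mirg 508 and 435. The intervals overlapped for Mirg.

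Of 30 genes for protein folding in the ER 21 were tested, with 1 at least 1.5-fold higher and 2 lower, which is not far from the background, and between 1 and 6 lower under the other settings. Their median log2 ratio was −0.33, against 0.04 in all other nuclei and 0.09 for all genes tested. Hsp90b1, the ER chaperone GRP94, had 210 (180 to 243) and 106 (89.1 to 126) CPM, a log2 ratio of −0.98 (−1.32 to −0.65), and −0.68 in all other nuclei. Pdia6, a disulfide isomerase, had 75.6 and 42.5 CPM, a log2 ratio of −0.83 (−1.38 to −0.28), but −0.29 with nuclei chosen after thinning. Dnajc10, which reduces disulfide bonds, had 295 (259 to 334) and 235 (210 to 264) CPM, or −0.33 on the log2 scale, and under the other settings this value ran from −0.42 to 0.05. Ern2, the ER stress sensor of goblet cells, was the gene that was higher, with 213 (183 to 247) and 336 (305 to 370) CPM, a log2 ratio of 0.66 (0.40 to 0.92), with 1.16 in all other nuclei, and it was 0.48 after thinning to 1000 UMIs.

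Of 28 genes listed for the glycosylation and sulfation of mucins, not all of them enzymes or specific to mucins, 19 were tested. Of these, 4 (Galnt5, B3gnt7, Gcnt1 and Chst4) were at least 1.5-fold higher and none lower. The median log2 ratio was 0.24, within the middle 50% of all genes, against 0.49 in all other nuclei. Galnt5, B3gnt7 and Chst4 fell short of 1.5-fold under other settings, with log2 ratios down to 0.54, 0.44 and 0.37. Galnt3, Papss2 and St3gal6 passed it, with up to 0.75, 0.68 and 0.66. Galm was just short of 1.5-fold lower as reported, at −0.58, and reached −1.02. Under the other settings between 2 and 5 genes were higher and at most 1 was lower. The gene of the list with the most UMIs was Galnt7, which adds sugars to partly glycosylated mucins, with 2114 (2017 to 2215) and 2106 (2026 to 2187) CPM. St3gal6, a sialyltransferase, had 1087 (1017 to 1160) and 1606 (1537 to 1678) CPM, a log2 ratio of 0.56 (0.45 to 0.68), just short of 1.5-fold, and Fut2, which makes the H antigen of mucus, had 806 (746 to 869) and 573 (532 to 616), a log2 ratio of −0.49 (−0.64 to −0.34). Gcnt1, which branches O-glycans, had 25 and 87 UMIs, a log2 ratio of 1.19.

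Among 18 genes of granules and exocytosis 11 were tested, and 3 were at least 1.5-fold higher and none lower, with a median log2 ratio of 0.26 against 0.51 in all other nuclei. These were Bcas1, with 225 (194 to 260) and 429 (394 to 467) CPM, Atp2c2, a calcium and manganese pump of the Golgi, with 108 and 194, and Capn8, a calpain of mucus cells, with 106 and 168, whose log2 ratio of 0.67 was 0.57, short of 1.5-fold, without nuclei that also met another rule and when scaled by the median ratio. Sytl2 and Rab27b, which tether granules, had 601 and 643 and 215 and 238 CPM, with overlapping intervals. Of 18 regulators of the secretory fate 6 were tested and none reached 1.5-fold in either direction as reported, with a median log2 ratio of 0.32. Under other settings Foxa3, Klf4 and Xbp1 passed it, with log2 ratios of up to 0.71, 0.73 and 0.77, and at most 2 of them did so under the same setting. Foxa3 had 211 (181 to 245) and 306 (276 to 337) CPM, and Klf4, a factor of goblet differentiation, 110 and 161. Xbp1, which drives the secretory apparatus, had 60.0 and 88.2 CPM. Atoh1 had only 28 and 49 UMIs and Gfi1, its target in the secretory lineage, 28 and 31.

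The log2 ratio of Muc2 was −0.38 (−0.45 to −0.30) in early crypt goblet nuclei, short of 1.5-fold, −0.12 in mature goblet nuclei and 0.36 in all other nuclei, and in early crypt goblet nuclei it lay between −0.47 and −0.33 across the other settings. That of Spink4, a gene of the rule whose level in these nuclei is a description, was −0.60 in early crypt goblet nuclei and 1.06 in all other nuclei, where the level was 122 and 255 CPM. Mesenchymal nuclei held 64.1 and 157 CPM of Spink4, and after thinning to 1000 UMIs at least 1 Spink4 UMI was found in 5.51% and 19.3% of them, against 60.1% and 53.1% of early crypt goblet nuclei. All other nuclei include 110 WT and 511 HIF-1α KO nuclei that met the markers but held 3 or more mature genes, of which 60 and 185 were mature goblet nuclei by their rule, and the part of these nuclei in the levels was not tested.

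**Figure D5:**
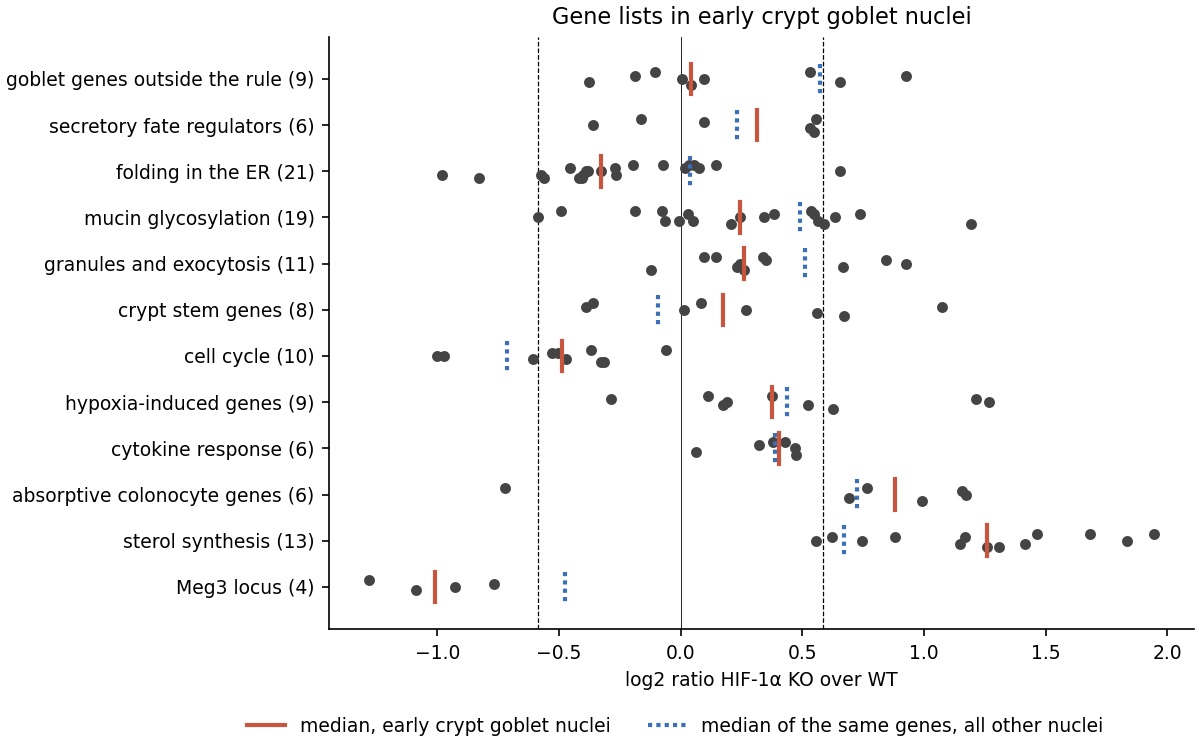
Log2 ratio HIF-1α KO over WT in early crypt goblet nuclei of each tested gene (points) of 12 lists, with the number of tested genes in parentheses, the median of the list (red) and the median of the same genes in all other nuclei (blue, dotted). Dashed lines mark 1.5-fold. The median is 1.26 for sterol genes, −1.01 for the Meg3 locus, −0.33 for ER folding and −0.49 for the cell cycle.

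Of the crypt stem genes 8 of 16 were tested, and 2 were at least 1.5-fold higher and none lower, with a median log2 ratio of 0.18 against −0.09 in all other nuclei. Smoc2, a secreted matrix protein of crypt base stem cells, had 39.6 (27.2 to 55.6) and 83.5 (68.3 to 101) CPM, a log2 ratio of 1.08 (0.50 to 1.69), and −0.05 in all other nuclei. Rnf43, which removes Wnt receptors from the membrane, had 113 (91.1 to 138) and 180 (157 to 204) CPM, a log2 ratio of 0.67 (0.32 to 1.03), and 0.03 in all other nuclei, but 0.37 with nuclei chosen after thinning. Ephb2 and Lrig1 had log2 ratios of −0.36 and −0.39, and with nuclei chosen after thinning that of Ephb2 was −0.59, past 1.5-fold. Of the cell cycle genes 10 of 18 were tested, and 3 (Kif11, Hells and Pola1) were at least 1.5-fold lower and none higher, with a median log2 ratio of −0.49, compared with −0.71 in all other nuclei. Under the other settings between 2 and 9 of the 10 were lower, and Kif11 was short of 1.5-fold without the filter on nuclei, with a log2 ratio of −0.49. Mki67, a marker of dividing cells on the same list, had a log2 ratio of −0.53 that turned to 0.59 after thinning to 1000 UMIs. Pola1, a subunit of DNA polymerase alpha, had 136 (112 to 163) and 67.7 (54.2 to 83.6) CPM.

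Among 20 genes of the hypoxia response 9 were tested, and 3 were at least 1.5-fold higher and none lower, with a median log2 ratio of 0.37 against 0.44 in all other nuclei. These were Epas1, which encodes HIF-2α, with 39.6 (27.2 to 55.6) and 95.3 (79.1 to 114) CPM, Ndrg1, with 51.6 and 120, and the hexokinase Hk2, with 131 and 202, whose log2 ratio of 0.62 was 0.38 with nuclei chosen after thinning. Hif1a itself had 124 (101 to 150) and 139 (120 to 161) CPM, with overlapping intervals. The deletion was directed to NKp46+ cells, so Hif1a in epithelial nuclei says nothing about the labels. Of 22 genes of the response to cytokines 6 were tested and none reached 1.5-fold, except Il13ra1 with 0.61 under mature UMIs below 0.3%, with a median log2 ratio of 0.40 against 0.39 in all other nuclei. Stat3 had 270 (236 to 308) and 351 (319 to 385) CPM, Il13ra1, a receptor for the cytokine that drives goblet cells, 152 and 211, and Pigr, which carries antibodies into the lumen, 655 and 685.

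Markers of other cells were counted in the early crypt goblet nuclei as well. Of 11 markers of absorptive colonocytes 6 were tested, and 5 of these (Slc26a3, Car4, Ceacam20, Plac8 and Krt20) were at least 1.5-fold higher and Car1 was lower in the HIF-1α KO nuclei, with a median log2 ratio of 0.88, and 0.73 in all other nuclei. Their sum was 537 and 860 CPM in early crypt goblet, 1728 and 2536 in all other and 628 and 757 in mesenchymal nuclei, Plac8 had the most UMIs with 115 and 229 CPM, and Slc51a had 0 UMIs in both libraries. At least 3 of these markers were detected in 32 WT nuclei (10.6%) and 114 HIF-1α KO nuclei (36.4%). Without them the log2 ratios were −0.13 for Slc26a3, 0.36 for Car4 and 0.04 for Ceacam20, below 1.5-fold or turned. The same markers chose the nuclei left out, so lower ratios follow in part from that choice and nothing is read from them. With nuclei chosen after thinning the log2 ratio of Plac8 was 0.22 and that of Krt20 0.46. When nuclei with at least 3 absorptive markers were left out, 308 genes were higher and 150 lower among 3228 tested. Of the 12 mesenchymal markers, which had 13062 and 18786 CPM in mesenchymal nuclei, 396 and 364 CPM were found in early crypt goblet nuclei, with Dmd at the top, and 2 and 3 of the nuclei met the mesenchymal rule. The 8 immune markers summed to 112 and 71.7 CPM, with Cd3e and Csf1r at 0, the 6 endothelial markers to 42.0 and 18.9, and the 9 tuft cell markers to 14.4 and 12.6, with Trpm5, Il25, Alox5 and Ltc4s at 0. The 16 enteroendocrine markers summed to 236 and 134 CPM, with Kcnb2 at the top and Pax4 at 0, and at least 3 of them were detected in 4 nuclei of each library. The part of such RNA in the other values was not tested, except where nuclei were left out.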

How the data were processed

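Single-nucleus RNA sequencing (10x Genomics 3′ v3.1) of frozen colon gave 1 library per genotype. Per the submitters' processing notes and the paper's methods the authors ran Cell Ranger 7.0.1 with mm10 (GRCm38) as reference and deposited raw UMI counts by gene and barcode for the nuclei that its default calling kept, 4896 WT and 4772 HIF-1α KO barcodes. Gene names and barcodes were deposited as separate lists and carry no measured values. Whether intronic reads were counted is not given in the sources used here. The limits on nuclei stated in the paper's methods (400 to 5000 detected genes, at most 10% mitochondrial UMIs) left 4884 and 4702. The number of nuclei that the paper gives equals that before this filter.

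UMIs were summed over nuclei of a class and library in Python 3.11.15 with numpy 2.4.6, pandas 2.3.3 and scipy 1.17.1, divided by all UMIs of these nuclei and given as CPM. With 1 library per genotype no test was made. A gene was counted as tested with at least 100 UMIs in both libraries together and as higher or lower from 1.5-fold on. Mature goblet, crypt base stem, cycling and mesenchymal nuclei were taken by marker rules of the same kind, each leaving out the classes before it. The stem class held only 13 and 16 nuclei and was not compared. Thinning drew a fixed number of UMIs from each nucleus at random (seed 1) and left out 63 shallower HIF-1α KO nuclei at 1000 UMIs. No doublet caller was run, and nuclei that also met another class's rule were left out as an alternative. The counting of genes past the fold was checked on simulated counts. Gene positions on GRCm38 came from GENCODE M21 by Ensembl identifier, and promoter windows were taken from RefSeq.

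The nuclei, the gene lists and the tests were chosen with earlier results of these data known. The text names the 15 genes of the rule, genes of the lists, the 15 genes outside the rule with the highest ratio over all other nuclei in the library where it was lower, and the 10 highest and 10 lowest ratios between the genotypes with intervals apart. Genes that set early apart from mature goblet nuclei, and the lists of sterol genes and of the Meg3 locus, were chosen after their values were seen. Some genes of the sterol pathway are not reported here.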

Additional observations from a re-analysis of the deposited data

Results flagged for a closer look

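The log2 ratio of Spink4, HIF-1α KO over WT, differed in sign between early and mature goblet nuclei. In early crypt goblet nuclei it was −0.60 (−0.71 to −0.48), from 1511 to 999 CPM, and in mature goblet nuclei it was 0.66 (0.49 to 0.82), from 372 to 586 CPM. Spink4 is a gene of the rule for early nuclei, so its level there is set in part by the choice of nuclei, and with 1 library per genotype the difference between the classes was not tested. In mesenchymal nuclei, which should lack it, Spink4 had 64.1 and 157 CPM, and the part of such background in the mature value was not tested. The choice of nuclei bears on the mature value too. Of the 328 WT and 527 HIF-1α KO mature goblet nuclei, 60 and 185 also met the markers of the early rule, Spink4 among them. They were left out of the early class for 3 or more mature genes, and their part in the mature value was not tested.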

How the results depend on the processing

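Thinning, which also lowers the detection of mature genes, and the limit on these genes moved the share most. The log2 ratio of the share of early crypt goblet nuclei, 0.11 as reported, was 0.98 after thinning to 1000 UMIs, 1.10 after thinning to 500, 0.36 with at least 5 markers, 1.06 without a limit on mature genes, −0.74 with fewer than 2 of them, and 0.92 with their UMIs under 0.3% in place of fewer than 3 detected. With at least 3 markers it was −0.02. With the other 5 settings it lay between 0.11 and 0.19, the latter among unthinned nuclei with 2000 to 5000 UMIs. Thinning to 500 UMIs, the limit of 0.3% on mature UMIs and leaving out nuclei with absorptive markers were chosen after seeing the data. The numbers of genes at least 1.5-fold higher and lower, 415 and 179 of 4220, were 138 and 46 of 1364 after thinning, 1413 and 1000 of 9082 with at least 20 UMIs, 172 and 58 of 2412 with at least 200, 3662 and 4978 of 17080 with no minimum, 89 and 26 at 2-fold, 721 and 347 of 6229 with mature UMIs under 0.3%, and 279 and 271 when scaled by the median ratio. Shares of nuclei with a UMI fell on thinning to 1000 UMIs, for Muc2 to 84.1% (WT) and 85.9% (HIF-1α KO) and for Kit to 11.3% and 15.4%. Of 184 named genes under 9 settings, 1542 log2 ratios lay within the counting interval of the reported value. Of the 67 genes past 1.5-fold, 26 fell short of it under at least 1 setting, and of the other 117 genes 37 passed it. The sign changed under at least 1 setting in 50 genes, of which 3 were past 1.5-fold as reported. These 3 were Kcnb2, at 0.29 with nuclei chosen after thinning and 0.53 with mature UMIs under 0.3%, Nrg1, at 0.39 with the latter, and Slc26a3, at −0.13 without nuclei that held 3 or more absorptive markers. Slc26a3 is itself 1 of the markers by which these nuclei were left out, so nothing is read from its turn. The causes were not tested. No paired analysis was possible because each genotype had 1 library, and for the same reason no replicate could be left out. Depth limits genes under 100 UMIs, such as Atoh1, Gfi1, Lgr5 and Tff3, for which no direction is read.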
